A study of Mus musculus with 12 samples.

Results

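The adult comparison of 2 β-cell subtypes was described from whole genome bisulfite sequencing of sorted β cells of mice at postnatal day 60 (P60). Its members are the 8 P60 libraries of the 12 libraries in the series, 4 of eYFP+ cells and 4 of eYFP- cells. All groups came from MNYI mice, which carry Myt1cCre, Ngn3nCre, Rosa26eYFP and InsApple together, so both subtypes hold every allele. The split Cre is joined only in cells that express both Myt1 and Neurog3, and eYFP from Rosa26 then marks the descendants of Myt1+Neurog3+ (M+N+) islet progenitors, whereas eYFP- β cells are attributed to Myt1-Neurog3+ (M-N+) progenitors. A cell in which the Cre was not joined is also eYFP-, so that group can hold unlabelled descendants of M+N+ cells. β cells were gated by the Apple reporter under an insulin promoter and dead cells were excluded with DAPI. No strain background or treatment is given in the labels of these groups. Each library joined several sorts of several mice, so a replicate is a pool of animals. The study describes this joining for each stage and sex. Whether libraries of the same sex and subtype came from separate animals or from the same joined DNA is not stated. Replicates 1 and 3 of each subtype were labelled female and replicates 2 and 4 male. The titles name the reporter eGFP and one label field speaks of all islet cells.

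Methylation of the cytosine in CpG dinucleotides is copied at cell division and is removed or kept low at active promoters and enhancers, so a hypomethylated region (HMR) of a differentiated cell records where regulatory DNA is or has been open. In β cells, low methylation marks the insulin genes and the enhancers of islet transcription factors. Myt1 is a zinc finger transcription factor and Neurog3 the bHLH factor that commits pancreatic progenitors to the endocrine fate.

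The regions named for their differences between the subtypes were short, CpG-bearing segments in introns, in exons and between genes. Printed are 2 regions lower in eYFP+ cells, an exon of Zfp503 and a segment near Pag1, and the first 3 lower in eYFP- cells by size of difference, near Hlx, near Tmem132b and in Rora. They are read from GRCm39 (mm39), forward strand, 5′ to 3′, with each CpG in capitals, since the CpGs are the letters that were measured. The chromosomal positions are chr14:22035369-22035465 for Zfp503, chr3:9987764-9988059 for Pag1, chr1:184473382-184473444 for Hlx, chr5:126320912-126321107 for Tmem132b and chr9:68640617-68640700 for Rora.
Zfp503: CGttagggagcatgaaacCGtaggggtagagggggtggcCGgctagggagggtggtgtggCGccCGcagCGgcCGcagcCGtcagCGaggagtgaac
Pag1: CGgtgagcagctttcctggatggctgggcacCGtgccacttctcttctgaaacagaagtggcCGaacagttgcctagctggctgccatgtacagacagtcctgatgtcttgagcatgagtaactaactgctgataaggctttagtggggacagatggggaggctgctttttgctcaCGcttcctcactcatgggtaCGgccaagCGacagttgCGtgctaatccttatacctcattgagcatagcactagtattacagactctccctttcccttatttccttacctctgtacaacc
Hlx: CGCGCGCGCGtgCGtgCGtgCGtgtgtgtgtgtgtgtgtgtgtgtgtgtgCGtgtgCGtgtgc
Tmem132b: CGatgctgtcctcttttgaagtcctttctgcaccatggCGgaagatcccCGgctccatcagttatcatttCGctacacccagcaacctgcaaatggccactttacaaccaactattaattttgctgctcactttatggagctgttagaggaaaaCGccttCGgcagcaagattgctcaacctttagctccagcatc
Rora: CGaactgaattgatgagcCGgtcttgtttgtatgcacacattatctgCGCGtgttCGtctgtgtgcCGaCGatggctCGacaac
The sequence near Hlx is a repeat built mostly of CG and TG steps, and how well reads can be placed there was not tested.

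The level of a region is the methylated share, in percent, of the reads that cover its CpGs. Levels came from 1 pooled column of read counts per subtype, so a level has no replicate error, and its 95% Wilson interval covers counting error only. The eYFP- pool held 923333281 reads on autosomal CpGs and the eYFP+ pool 918630139, a mean of 45.7 and 45.4 reads per CpG, and 67.9% and 67.6% of them were methylated. The 4 libraries of a subtype were deposited as HMR positions without read counts, so their depth is unknown and they show only whether a region was hypomethylated in a library. The 2 pools had 62015 (eYFP-) and 61392 (eYFP+) autosomal HMRs, of 48.3 and 48.2 Mb in all, which merged into 65638 regions. Of these, 56932 (86.7%) held an HMR of both pools, 4670 an HMR of the eYFP- pool alone and 4036 of the eYFP+ pool alone.

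In 65119 regions with at least 3 CpGs and 10 reads in each pool, the 2 subtypes had near-equal methylation. The median level was 7.55% in the eYFP- pool and 7.57% in the eYFP+ pool, and the median absolute difference was 1.21 percentage points. The middle 90% of differences lay between -5.20 and 5.25 points, where a negative value is lower in eYFP+ cells. A region was called when the 2 pools differed by at least 10 points with an adjusted p under 0.05 in a two-sided Fisher's exact test, with Benjamini-Hochberg adjustment over all 65119 regions. By this rule 432 regions were called, 0.663 percent of those tested: 194 were lower in eYFP+ cells (0.298 percent) and 238 were lower in eYFP- cells (0.365 percent). An unadjusted p under 0.05 was reached by 9244 regions and an adjusted p under 0.05 by 1278. This test compares the reads of 2 pools and not the conditions, because neither pool keeps its 4 libraries apart.

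HMRs were delimited on the same reads as those tested, and 340 of the 432 calls lay in regions that held an HMR of 1 pool only: 156 of the 194 regions lower in eYFP+ cells and 184 of the 238 lower in eYFP- cells. Where only the parts shared by HMRs of both pools were compared, 14 and 19 parts were called. The called regions were also short, with a median length of 208 bp against 469 bp over all regions, 7 CpGs against 9, and a median distance from a protein-coding gene start of 51.7 kb against 25.3 kb. Calls were most frequent at thin coverage. Of 1471 regions with under 20 reads per CpG in either pool, 5.78% were called, with a median absolute difference of 31.3 points and a median of 5 reads per CpG among the called. In the 63648 regions with 20 or more reads per CpG in each pool, here termed well covered, 347 were called, 154 lower in eYFP+ cells and 193 lower in eYFP- cells, with a median absolute difference of 12.5 points and a highest value of 32.7. Levels of single regions named in the paragraphs that follow are from well covered regions unless stated. Counts, shares and medians by region class, level, length, CpG density and gene locus cover all tested regions unless stated, thin ones included. Those set against P2 are from well covered regions.

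Promoters carried few of the differences. Regions were classed as promoter when they overlapped 1 kb either side of a protein-coding gene start, then as exon, intron or intergenic. Only the outermost annotated start of each gene was used, so the promoter of another transcript can fall in another class. Only 7 of 12588 promoter regions were called, 0.0556% with a Wilson interval of 0.0269 to 0.115%. The called share was 0.949% in exons (0.712 to 1.26), 0.712% in introns (0.608 to 0.832) and 0.865% in intergenic regions (0.759 to 0.985), and intergenic and intronic regions together made up 379 of the 432 calls. The median absolute difference ran from 0.264 points at promoters through 1.03 in exons to 1.68 in introns and 1.72 between genes. Promoters also had the lowest levels, a median of 2.10% in eYFP- cells against 7.64 to 9.49% in the other classes, and a region at such a level can differ by 10 points only upward. In regions with a mean level under 5%, 0 of 22634 were called, and at 20 to 30% the share was 4.67%.

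**Figure D1:**
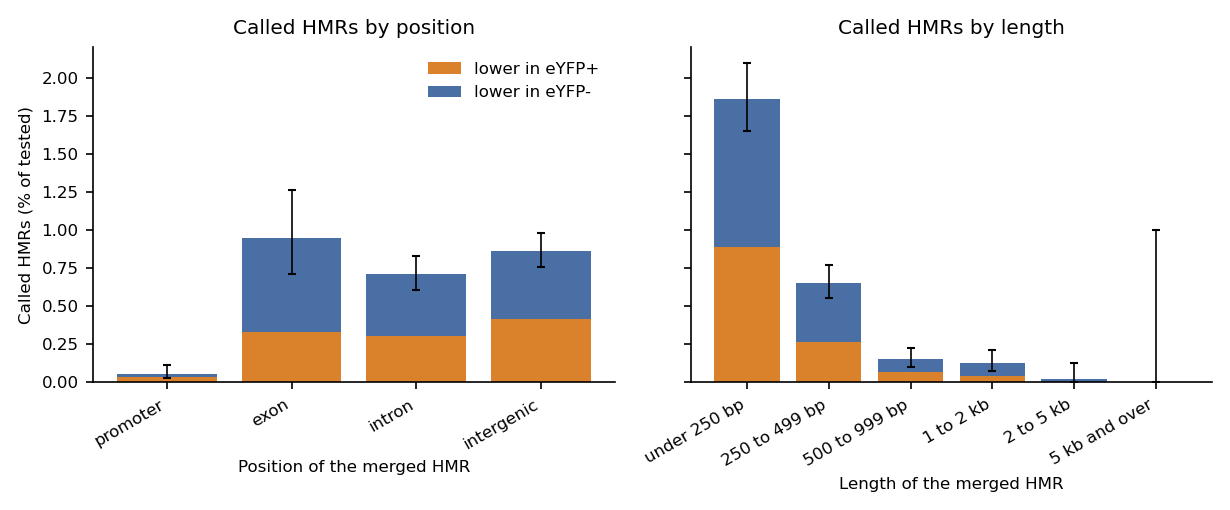
Percent of tested P60 regions that were called, by region class (left) and by region length (right), with the 2 directions stacked in each bar and the 95% Wilson interval of their sum. Promoters and regions of 1 kb or more had the lowest shares, and regions under 250 bp the highest.

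Length separated the calls in the same way. Of regions under 250 bp, 1.86% were called, of those from 250 to under 500 bp 0.653%, of those from 500 bp to under 1 kb 0.151% and of those of 1 to 2 kb 0.124%. When well covered, the share was 0.127% from 500 bp to under 1 kb, and 1 of 10122 regions (0.00988%) at 1 to 2 kb. In 379 regions of 5 kb and over, the wide unmethylated valleys that hold many developmental regulators, none was called by Fisher's exact test with adjustment, and the Wilson interval of that share reached 1.00%. The 1 called region of 2 to 5 kb was 1 of 4497, and it was not well covered. By CpG density, regions with 8 or more CpGs per 100 bp were called most often, at 2.51%, and at 1.40% when well covered.

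The 4 called promoters with good coverage, chosen after their values were seen, were those of S100z, Pcdha6, Flcn and Kif1b. At S100z, which encodes a calcium-binding protein of the S100 family, the region chr13:95615246-95615354 was at 23.5% (472 reads) in the eYFP- pool and 50.4% (393 reads) in the eYFP+ pool. The difference was 26.9 points (95% interval 20.5 to 33.0, adjusted p = 2.34e-12 in Fisher's exact test). It was an HMR in eYFP- replicates 1 and 3, over 31.2 and 100% of its length, and in none of the 4 eYFP+ libraries, so the subtypes overlapped at 0. In neonatal (P2) cells, from other mice, the same region was at 18.0% and 33.1%. The region in front of Flcn, the tumour suppressor folliculin, was lower in eYFP+ cells, at 17.7% against 29.2%, and so was that of Kif1b, a kinesin motor, at 20.2% against 31.4%. Kif1b's region was an HMR in none of the 8 libraries.

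A difference of 10 points set the limit of a call. The called region nearest to the limit was in an exon of Shq1, at 19.1 against 29.1%. Just outside it lay an intron of Cacna1c, the pore-forming subunit of an L-type calcium channel, at 11.02% in eYFP- and 21.0% in eYFP+ cells, a difference of 9.99 points with an adjusted p of 0.00117 in Fisher's exact test. An HMR was present there in 4 eYFP- and 2 eYFP+ libraries.

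To name regions that did not rest on 1 or 2 libraries, regions were required to have an HMR in at least 3 more libraries of the lower subtype than of the other, at least 5 CpGs and good coverage, and the 10 of largest difference were taken in each direction. There were 22 eligible regions lower in eYFP+ cells and 25 lower in eYFP- cells. The pool levels chose these regions and the libraries made up the pools, so library agreement is a description and not separate evidence.

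The regions lower in eYFP+ cells ran from 7.90 to 21.5% in eYFP+ cells and from 23.0 to 35.8% in eYFP- cells. A coding exon of Zfp503, a zinc finger repressor of embryonic development, was at 34.1% of 528 reads against 17.2% of 593 reads (-16.9 points, -21.9 to -11.8, adjusted p = 2.56e-07 in Fisher's exact test). Its HMR covered 70.1, 59.8, 100 and 88.7% in the eYFP+ libraries, and 57.7% in eYFP- replicate 2 alone, so 1 eYFP- library overlapped the eYFP+ libraries.

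Between genes, the region near Pag1, which encodes a membrane adaptor that recruits the kinase Csk, was at 33.0% in eYFP- and 17.7% in eYFP+ cells. It was covered in full or nearly so in eYFP+ replicates 1, 2 and 3 (100, 89.5 and 100%) and at 0% in eYFP+ replicate 4 and in all 4 eYFP- libraries. An intergenic region 211 kb from the start of Fam43a was at 23.0% in eYFP- and 7.90% in eYFP+ cells, the lowest level among these 10 regions, with HMRs over 47.7 to 100% of it in all 4 eYFP+ libraries and in eYFP- replicate 4. The region with most CpGs, 23, lay in an exon where Dnase2a, a lysosomal DNase, and Mast1, a microtubule-associated kinase, overlap on opposite strands. It was at 34.2% of 1461 reads against 21.5% of 1614 reads (-12.7 points, -15.9 to -9.56, adjusted p = 2.15e-11 in Fisher's exact test). Library HMRs covered 100, 18.2, 53.2 and 100% of it in the eYFP+ replicates and 0% in each eYFP- replicate, so the subtypes did not overlap.

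The other regions lower in eYFP+ cells had differences of -15.7 to -12.5 points. The nearest start to an intron of Carmil1, a regulator of actin capping, was that of Scgn, which encodes the calcium sensor secretagogin of endocrine cells, 145 kb away, and the level there was 32.5 against 17.4%. An intron of the serine protease gene Tmprss9, nearest to Timm13, a chaperone of the mitochondrial intermembrane space, was at 35.8 against 20.1%. A segment near Basp1, a membrane protein of growing axons, was at 26.4 against 11.4%. A coding exon of Plekhg4, a guanine nucleotide exchange factor, was at 27.0 against 14.4%, and an intron of B3glct, a glucosyltransferase of the endoplasmic reticulum, at 24.2 against 11.8%. In each of these 5 regions, 3 eYFP+ libraries and none of the eYFP- libraries had an HMR. In mm39 the regions that are not printed lie at chr10:80723008-80723387 (Tmprss9), chr13:24319581-24320043 (Carmil1), chr16:30629124-30629299 (Fam43a), chr15:24791421-24791478 (Basp1), chr8:85639576-85639778 (Dnase2a), chr8:106105439-106105607 (Plekhg4) and chr5:149638915-149639151 (B3glct).

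**Figure D2:**
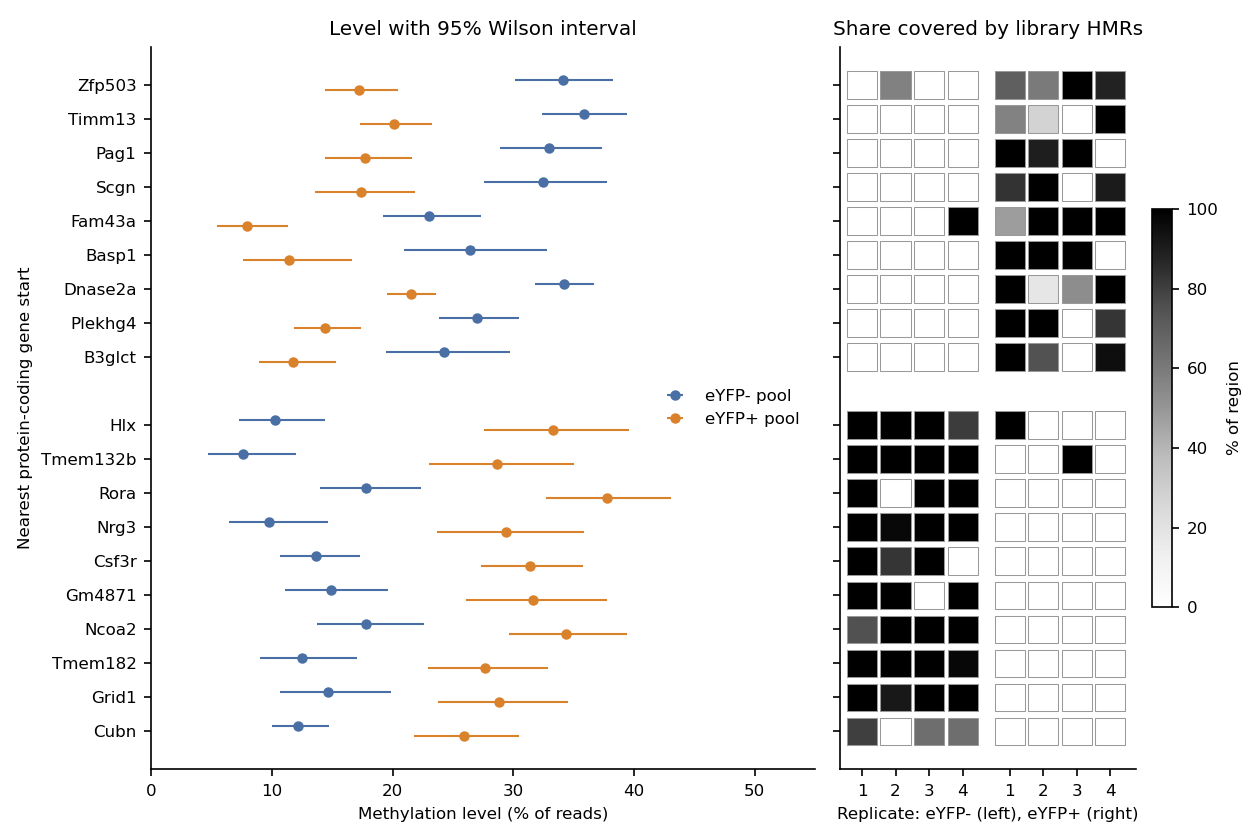
Methylation level of 19 named regions in the P60 eYFP- and eYFP+ pools with 95% Wilson intervals (left, percent of reads) and the percent of each region covered by HMRs of each library (right, white 0, black 100). The upper 9 regions were lower in eYFP+ cells and the lower 10 in eYFP- cells, and regions with no HMR in any library of one subtype show 4 white boxes.

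The regions lower in eYFP- cells ran from 7.62 to 17.8% in eYFP- cells and from 25.9 to 37.8% in eYFP+ cells. The largest difference lay 7.57 kb from the start of Hlx, a homeobox gene of gut mesenchyme, in the CG and TG run printed above. It was at 10.3% of 282 reads in the eYFP- pool and 33.3% of 234 reads in the eYFP+ pool, 23.0 points apart (16.01 to 30.01, adjusted p = 2.79e-07 in Fisher's exact test). Library HMRs covered 100, 100, 100 and 81.0% of it in the eYFP- replicates and 100% in eYFP+ replicate 1 alone. Near Tmem132b the level was 7.62% of 210 reads against 28.6% of 213 reads, 21.0 points apart (13.9 to 28.0), with full HMRs in all 4 eYFP- libraries and in eYFP+ replicate 3.

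An intron of Rora, the nuclear receptor that drives clock genes, was at 17.8% of 315 reads against 37.8% of 331 reads, 19.99 points higher in eYFP+ cells (13.2 to 26.6, adjusted p = 1.71e-05 in Fisher's exact test). It was covered in full in eYFP- replicates 1, 3 and 4 and at 0% in eYFP- replicate 2 and every eYFP+ replicate. An intron of Nrg3, a ligand of the receptor ErbB4, was at 9.80 against 29.4%, with HMRs over 100, 97.1, 100 and 100% of it in the eYFP- libraries and 0% in each eYFP+ library. An intron of Ncoa2, a coactivator of nuclear receptors, was at 17.8 against 34.4%, with coverage of 75.2, 100, 100 and 100% in eYFP- and 0% in each eYFP+ library. In these last 2 regions the 4 libraries of one subtype did not overlap the 4 of the other.

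Near Tmem182 the level was 12.5 against 27.7%, with 97.52 to 100% coverage in all 4 eYFP- libraries and 0% in every eYFP+ library. Near Grid1, which encodes a synaptic receptor of the delta glutamate family, it was 14.7 against 28.8%, with 91.6 to 100% coverage in eYFP- and 0% in eYFP+ libraries. These regions too separated the subtypes. The remaining regions were a segment 92.2 kb from Csf3r, the receptor of granulocyte colony-stimulating factor (13.7 against 31.4%), an intron of the importin gene Kpna7 (14.9 against 31.7%) and an intron of Cubn, an endocytic receptor (12.2 against 25.9%). Each had an HMR in 3 eYFP- libraries and in none of the eYFP+ libraries. The regions of this direction that are not printed lie at chr14:38923047-38923710 (Nrg3), chr4:125826012-125826129 (Csf3r), chr5:144972640-144972847 (Kpna7), chr1:13362245-13362542 (Ncoa2), chr1:40993902-40994224 (Tmem182), chr14:34493865-34493947 (Grid1) and chr2:13483897-13484351 (Cubn).

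In the 3 profiles examined CpG by CpG, the differences lay inside the regions. These regions were chosen for their difference and their borders were drawn on the same reads, so this position follows largely from the choice. Inside the Zfp503 region 10 of 10 CpGs were lower in eYFP+ cells. Inside the Hlx region 10 of 11 CpGs were higher in eYFP+ cells and inside the Tmem132b region 7 of 7. Within 1 kb of the regions' centres but outside them, the pools were at 62.4 and 62.2% around Hlx and 61.9 and 62.3% around Tmem132b, giving eYFP- first. Around Zfp503, where 131 further CpGs were counted, the flanks were at 25.9 and 23.8%.

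**Figure D3:**
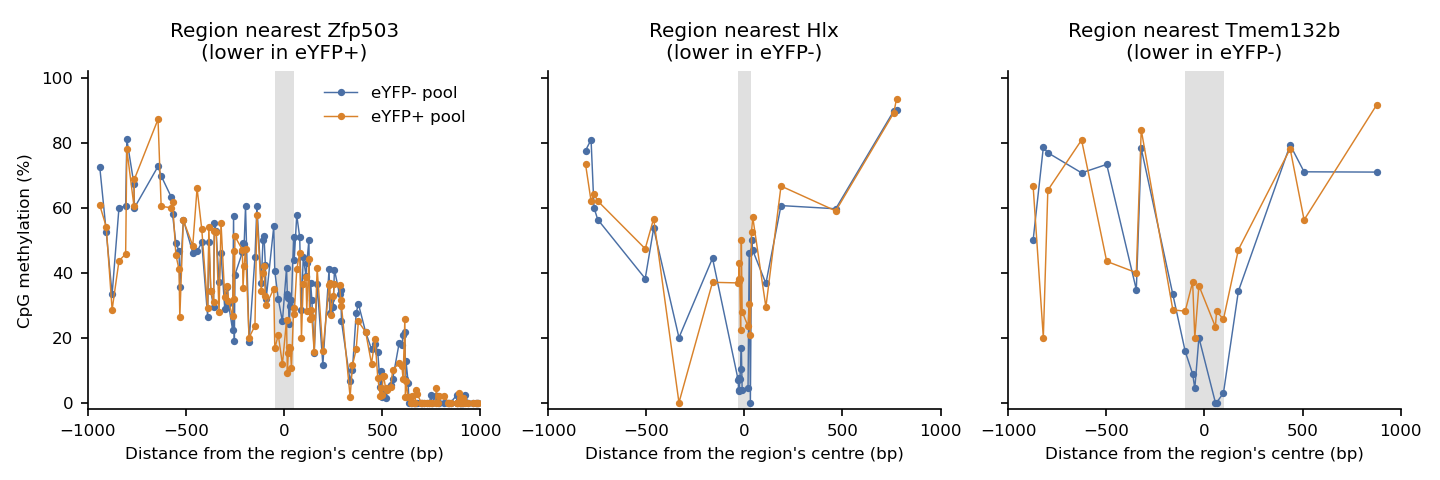
Methylation of each CpG read at least 10 times in the 2 P60 pools (percent, y axis) against distance from the region's centre (bp, x axis), with the region shaded. In the shaded segment in Zfp503 the eYFP+ line lies under the eYFP- line, and near Tmem132b above it. Near Hlx it lies above at 10 of 11 CpGs.

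Some larger differences had less library agreement, and 2 of these were picked after their values were seen. The largest of a well covered region was in an intron of Galntl6, a short segment of 21 bp and 6 CpGs at 54.4% of 136 reads in the eYFP- pool and 21.7% of 129 reads in the eYFP+ pool, with HMRs in eYFP+ replicates 1 and 2 only. A segment of 23 bp and 11 CpGs, 49.0 kb from Satb1, a chromatin organiser, was at 21.9 against 44.6%, with HMRs in eYFP- replicates 2 and 3 only, and it was at 23.4 and 46.4% at P2.

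Full separation of the libraries was rare in both directions. An HMR in all 4 eYFP+ and in none of the eYFP- libraries was found at 17 of 65638 regions (0.0259 percent), and the reverse at 19 (0.0289 percent). Pool differences had the matching sign at all 17 and all 19, with medians of -6.02 and 8.83 points, but only 4 and 6 of these regions were called, and the libraries are the ones that make up the pools. The called regions of the first set were those of Dnase2a, Uncx, Krt75 and an intron of Tenm4. The Tenm4 intron, in a gene of the teneurin family of adhesion receptors, was at 26.4 against 14.2%, with HMRs over 100, 61.6, 100 and 78.9% of it in the eYFP+ libraries. The segment near Uncx, a homeobox gene, was at 30.2 against 19.2%, with 26.1 to 100% coverage in eYFP+ libraries. In the second set, Nrg3, Ncoa2, Tmem182, Grid1, Pals2 and Tenm3 were called. The region near Tenm3 held the lowest level, 2.88% of 208 reads in the eYFP- pool against 13.9% of 202 reads in the eYFP+ pool. At P2 it was at 18.3 and 18.0%. Over both sets, regions that missed the call had pool differences down to -2.17 and 1.77 points, such as an intron of the deacetylase gene Hdac7 at 19.4 against 13.4%.

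The P2 pools, made from other mice, gave a view of the called regions that the P60 rule had not used. Of the 154 well covered regions lower in eYFP+ cells at P60, 91 (59.1%) were also lower at P2, with a median P2 difference of -1.34 points. Of the 193 lower in eYFP- cells, 146 (75.6%) had the same direction at P2, with a median of 3.85 points, and 19.7% differed by at least 10 points. In 12379 regions at a level of 15 to 30% that were not called, 45.5% were lower and 54.5% higher in eYFP+ cells at P2, with a median of 0.442 points. Of 3854 regions that were not called and held an HMR in the eYFP- pool only, 60.9% were higher in eYFP+ cells at P2 (median 1.30 points), as were 58.8% of all 63298 regions that were not called. With an HMR in the eYFP+ pool only, 47.8% of 3323 such regions were lower in eYFP+ cells at P2. The P2 pools hold fewer reads and no replicates, and no test was run on these counts.

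Levels at both ages were set side by side for the called regions, as a description with no test. In regions lower in eYFP+ cells at P60, the median level of eYFP- cells was 16.6% at P2 and 28.5% at P60, while that of eYFP+ cells was 15.5% at both ages. In regions lower in eYFP- cells, eYFP- cells had medians of 18.1% at P2 and 14.6% at P60, and eYFP+ cells of 23.9 and 27.7%. The medians of the regions at 15 to 30% that were not called were 14.8% at P2 and 18.7% at P60 in eYFP- cells, and 15.6 and 18.4% in eYFP+ cells. Regions were chosen on P60 levels, so the high P60 level of one pool and the low level of the other are fixed by the choice. At Pag1, P2 levels were 6.23 and 6.60%, against 33.0 and 17.7% at P60. At Fam43a they were 3.50 and 4.40%, against 23.0 and 7.90%, and at Scgn 6.18 and 6.47%, against 32.5 and 17.4%, so both subtypes were higher at P60 and eYFP- cells more so. At Tmem182 the P2 levels, 10.9 and 30.6%, were close to those of P60. At Csf3r the P2 difference had the opposite sign, -14.4 points.

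**Figure D4:**
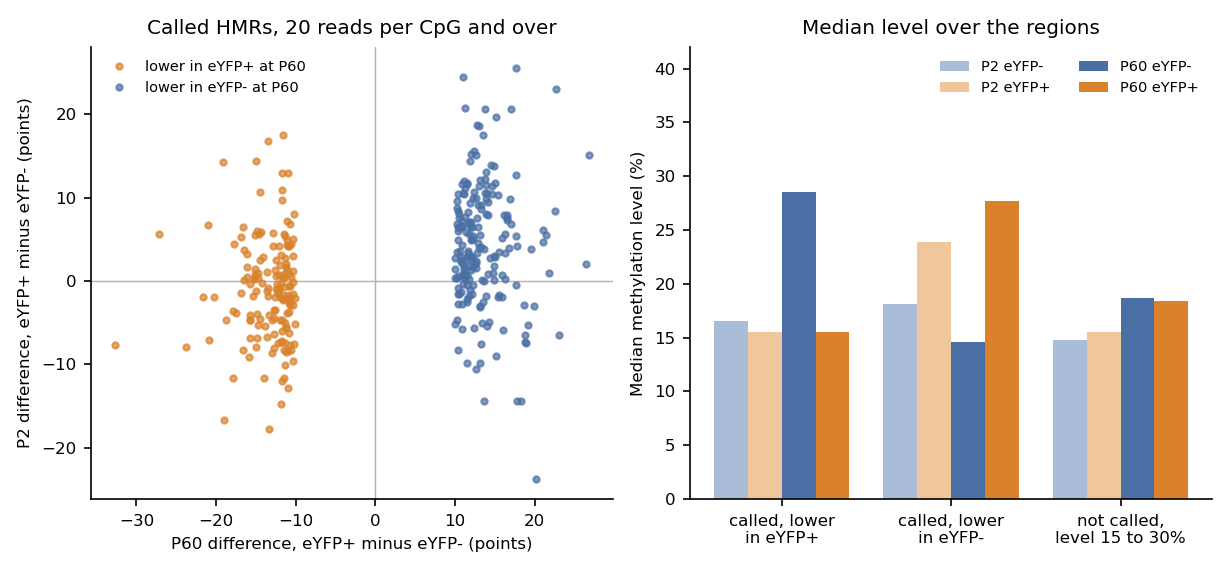
Left: difference in level between eYFP+ and eYFP- pools at P2 (points, y axis) against that at P60 (points, x axis) for the 347 well covered called regions. Right: median level at P2 and P60 in each subtype for the called regions of each direction and for regions at 15 to 30% that were not called. The eYFP- median rises from 16.6 to 28.5% in the first set, and eYFP+ stays at 15.5%.

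By gene locus, taken here as the gene body with 10 kb on both sides, 305 of 20621 autosomal protein-coding genes (1.48%) held a called region. Over the 45712 regions in any such locus, 256 were called (0.560%) and the median absolute difference was 0.963 points. Rora was the locus with most called regions, 3 of 26, and the next loci, Ankrd11, Art3, Dlg2 and Dlgap4 among others with equal counts, held 2 each. In Rora the calls had both directions, and they were the only 3 calls among 96 regions of circadian clock genes. Beside the printed intron, a segment of 317 bp was lower in eYFP+ cells, at 24.6% of 386 reads against 13.4% of 454 reads, with HMRs in eYFP+ replicates 1, 3 and 4 only. The third, of 15 bp, was covered by 8 reads per CpG in its thinner pool.

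Genes of β-cell identity and maturity showed 1 called region of 193 in 32 genes (0.518%, against 0.560% over all loci), with a median absolute difference of 1.14 points. Among 17 endocrine progenitor factors, 1 of 96 regions was called (1.04%), in an intron of Gata4, a zinc finger factor of endoderm. It was at 28.8% of 520 reads against 17.0% of 534 reads (-11.8 points, -16.8 to -6.74, adjusted p = 0.00148 in Fisher's exact test). HMRs covered 100, 73.6 and 73.6% of it in eYFP+ replicates 1, 2 and 4 and 0% in the other 5 libraries, and the P2 levels were 28.3 and 13.5%.

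Of the calcium channel genes, 2 of 193 regions were called (1.04%, against 0.560% over all loci), in opposite directions. Counts of 1 or 2 calls are too few to set a list apart from that share, and no test was run on them. An intron of Cacna1d, the pore-forming subunit of an L-type channel, was at 27.9 against 13.1%, with HMRs in eYFP+ replicates 2 and 4 only. An intron of Cacna2d2, an auxiliary α2δ subunit, was at 12% of 125 reads against 29.7% of 155 reads, with HMRs in eYFP- replicates 1 and 3 and eYFP+ replicate 1. Of the incretin, G protein and cAMP genes, 2 of 205 regions were called (0.976%). A region 4.62 kb from the start of Adcy6, an adenylyl cyclase, was at 29.0 against 15.4%, with an HMR in eYFP+ replicate 2 alone. An intron of Prkar1a, the regulatory subunit that restrains protein kinase A, was at 14.6 against 27.0%, with HMRs in eYFP- replicates 1 and 2, and at 6.54 and 17.2% at P2. In the imprinted genes, 1 of 50 regions was called (2%), in the locus of H19, a maternally expressed noncoding RNA, at 31.7 against 20.6%. The regions described from these lists lie in mm39 at chr14:63483930-63484054 (Gata4), chr14:30151733-30151887 (Cacna1d), chr9:107319620-107319692 (Cacna2d2), chr15:98512478-98512669 (Adcy6), chr11:109525657-109525855 (Prkar1a) and chr7:142131802-142131941 (H19).

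No region was called by Fisher's exact test with adjustment in the other 14 lists, with regions assigned by locus. These held 420 regions of potassium channel genes, 224 of Wnt ligands, receptors and effectors, 222 of synaptotagmins and exocytosis genes, 143 of insulin and growth factor signalling, 144 of the cytoskeleton and 106 of the endoplasmic reticulum and Golgi. An unadjusted p under 0.05 was reached by 61, 27, 23, 13, 23 and 12 of these. The rest held 95 regions of cell cycle, survival and senescence genes, 84 of DNA methylation enzymes and readers, 56 of Hox clusters, 49 of disallowed genes, 44 of β-cell heterogeneity markers, 38 of acinar genes, 37 of other islet hormones and 13 of the reporter and Cre alleles, with 12, 12, 8, 4, 4, 4, 8 and 2 such regions. Over all loci 14.1% of regions reached it and 0.560% were called, and at a share that low 0 calls do not show that a list lacks differences. Median absolute differences in these lists were between 0.376 and 1.33 points, around the 0.963 of all loci. With each region assigned instead to the nearest protein-coding start within 100 kb, the Wnt, cell cycle and endoplasmic reticulum lists held 1 called region each, calls fell from 3 to 1 in the circadian list and from 2 to 1 in the calcium channel list, and the imprinted list held 0.

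The genes that the study names as expressed at different levels, at P2 or at P60, held 158 regions with 0 called, and 17 had an unadjusted p under 0.05. Over all loci 0.560% of regions were called, so 0 calls in 158 regions do not set these genes apart. In Dnmt3a, the de novo methyltransferase, 16 of 22 regions were lower in eYFP+ cells, and the region of lowest p was in an intron, at 31.1 against 21.9% (adjusted p = 0.0647 in Fisher's exact test), with an HMR in 1 eYFP+ library. The study reports differing regions at Dnmt3a at both ages. It found them by its own rule, which was not limited to the merged HMRs and the limit of size used here. The promoter region of Kcnk3, a two-pore potassium channel, was at 3.77 against 2.62% (adjusted p = 0.0116 in Fisher's exact test), under the limit of size. In Syt7, the calcium sensor of exocytosis, 8 of 9 regions were lower in eYFP+ cells, with a median absolute difference of 0.277 points. An intron of Syt16 was at 6.03 against 10.7% (adjusted p = 0.0791 in Fisher's exact test). For Anapc7, Nek4, Ccng1, Bax, Bcl2l1, Cacna1a, Cacna2d1, Cd9, Cd24a, Gpx3, Rbp4, Myt1l and St18, no region had an adjusted p under 0.05. The study names Anapc7, Nek4, Ccng1, Bax, Bcl2l1, Kcnk3 and Syt16 from its P2 cells, so for these genes neonatal expression stands beside P60 methylation.

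At the genes of the lineage design, the promoters of Gt(ROSA)26Sor and Myt1 were at low levels in both subtypes. A region in the Neurog3 locus, classed as intronic, was at a higher level. The region over the start of Gt(ROSA)26Sor, the locus that carries the reporter, held 222 CpGs at chr6:113052424-113057813. It was at 2.27% of 12362 reads in eYFP- and 1.41% of 11501 reads in eYFP+ cells, a difference of -0.865 points with an adjusted p of 0.000321 in Fisher's exact test. Both alleles are read there, and reads of the targeted and the other allele cannot be told apart. At Myt1 the region of lowest p among 4 was the promoter, at 1.19 and 1.53%. At Neurog3 3 of 3 regions were higher in eYFP+ cells, and that of lowest p, at 19.2 against 28.7% on 5 CpGs, had an adjusted p of 0.188 in Fisher's exact test.

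Markers of cell types were read over 500 bp either side of the annotated gene start. Of 10 β-cell genes, 8 were under 20% in both pools, among them Ins1 at 7.87 and 5.74%, Iapp at 1.43 and 0.323%, Pdx1 at 0.559 and 0.729% and Mafa at 0.569 and 0.876%. Ins2 and G6pc2 were at 69.0 and 84.8% in eYFP- cells at the outermost annotated start, but at 4.86 and 2.04% at the start of the canonical transcript. Of 7 acinar genes only Ptf1a was under 20%, and of 4 leukocyte genes none. Levels ran from 1.01 to 84.7% in eYFP- and from 0.924 to 85.7% in eYFP+ cells for acinar genes, and from 59.5 to 76.6% and from 62.9 to 79.8% for leukocyte genes. Gcg, the glucagon gene of α cells, was at 54.6 and 60.8% (difference 6.12 points, 0.123 to 12.04), and Pyy, the peptide YY gene, at 68.7 and 59.8% (-8.89 points, -12.3 to -5.48). The duct, endothelial and mesenchymal lists had 2, 1 and 1 of 4 genes under 20% in both pools. The list of α, δ and PP genes had 4 of 8, among them the transcription factors Irx1, Irx2 and Hhex. At canonical starts Krt7, a duct keratin, was at 1.27 and 1.59% and Sst, the somatostatin gene of δ cells, at 15.3 and 15.6%, which gave 3 of 4 duct genes and 5 of 8 α, δ and PP genes under 20% in both pools, beside 10 of 10 β-cell genes. Whether a share of other cells contributes to any called region was not tested.

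Outside HMRs the pools differed by a small amount in one direction over most of the genome. In 23521 windows of 100 kb with 20 or more reads per CpG in each pool, the median level was 76.0% in eYFP- and 75.2% in eYFP+ cells. The difference had a median of -0.733 points and an SD of 0.551 across windows, and 92.5% of windows were lower in eYFP+ cells. The median by chromosome lay between -0.796 and -0.665. At P2 the same windows had a median difference of 0.719 points and 12.9% were lower in eYFP+ cells, so the sign was the opposite. Each of these is a difference between 2 pools with no replicate, and windows are not replicates. Inside HMRs the median difference at P60 was -0.0104 points.

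The libraries of the 2 subtypes did not differ detectably in their HMRs as a whole. A library had 43460 ± 4730 autosomal HMRs in eYFP- cells and 42735 ± 5043 in eYFP+ cells (SD, n = 4, exact permutation test, two-sided p = 0.886). The total length was 43.4 ± 1.17 Mb against 43.3 ± 0.516 Mb (SD, n = 4, exact permutation p = 0.857), and the median HMR length 665 ± 91.3 bp against 682 ± 108 bp (SD, n = 4, exact permutation p = 0.857). Promoters made up 28.1 ± 2.95% and 28.7 ± 3.08% of the HMRs (SD, n = 4, exact permutation p = 0.886). Introns made up 28.3 ± 1.75% and 28.1 ± 1.82% (SD, n = 4, exact permutation p = 0.886), and intergenic regions 35.5 ± 1.39% and 35.2 ± 1.46% (SD, n = 4, exact permutation p = 0.743). All 6 measures had an adjusted p of 0.886 in the exact permutation test, whose smallest possible two-sided p is 0.0286. Within replicates 1 and 2 the mean HMR number differed by -3083 and within replicates 3 and 4 by 1632, eYFP+ minus eYFP-, so the sign was not shared. Within a subtype the values followed the labelled sex. The 4 female libraries had 37067 to 43554 autosomal HMRs and the 4 male libraries 44822 to 48399, in ranges that did not overlap. The permutation test regroups libraries across the sexes, so this spread enters its p-values and can hide a smaller difference between subtypes. It also takes the libraries of a subtype as independent, which is not known for those of the same sex. A version paired by replicate number cannot go under 0.125.

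**Figure D5:**
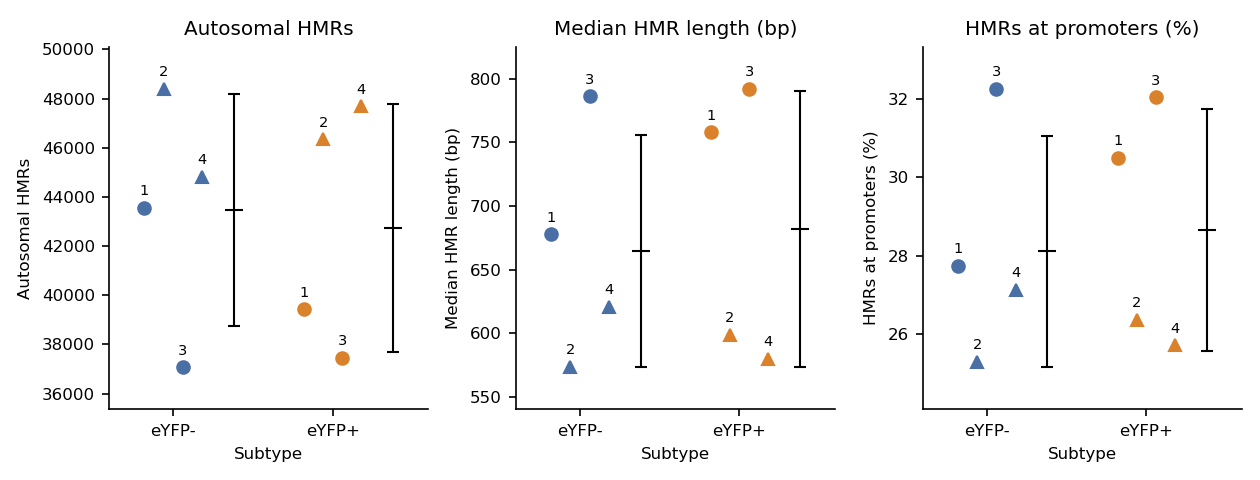
Autosomal HMR number, median HMR length (bp) and percent of HMRs at promoters in the 8 P60 libraries, with circles for female and triangles for male libraries, numbers for replicates, and the mean with SD beside each subtype. The subtypes overlap in each panel, and the female libraries have fewer and longer HMRs than the male ones.

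The frequency of short motifs of islet transcription factors was not clearly told apart between called regions and all regions. In the central 200 bp of well covered regions outside promoters, on both strands, the FOXA motif TGTTTAC was found in 5.92% of 152 windows lower in eYFP+ cells, 5.76% of 191 windows lower in eYFP- cells and 6.78% of all 51161 windows. The homeobox core TAATTA was found in 9.87, 10.5 and 9.23%, the GATA motif AGATAAG in 3.95, 2.09 and 2.98%, the E-box CAGATG in 21.1, 24.6 and 20.6% and the MAF motif TGCTGAC in 3.95, 6.28 and 5.45%. The Wilson intervals of the called sets held the share of all windows in each case, but they were wide. For windows lower in eYFP+ cells they ran from 3.15 to 10.9% for FOXA and from 1.82 to 8.34% for GATA. A window of 200 bp also reaches into the flanks of shorter regions. The study reports Foxa, Nkx6.1 and Isl1 motifs as enriched in its own P60 regions, which were found by another rule. A match is a run of letters and not a bound site.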

How the data were processed

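DNA of sorted β cells was measured by tagmentation-based whole genome bisulfite sequencing. The authors trimmed the reads (Trim Galore 0.6.6 and cutadapt 1.16, with FastQC and SAMtools 1.5, per the submitters' processing notes), mapped them with abismal to mm39, and used MethPipe to count reads at each CpG and to call HMRs, in pools of each subtype and in single libraries; versions of abismal and MethPipe are not given in the sources used here. The deposited tables hold methylated and unmethylated read counts per CpG for each pool, as whole numbers that were not normalised. Deposited scores and lists of differing regions hold the study's own comparison and were not used. The first pool of a table was taken as eYFP- and the second as eYFP+. HMRs of the eYFP- pool alone had more eYFP- libraries with an HMR at 1423 regions and more eYFP+ libraries at 264, and those of the eYFP+ pool alone 273 and 1367.

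HMRs of both P60 pools were merged where they overlapped or touched, on the 19 autosomes. All listed CpGs (100%) lay at CG in GRCm39. Counts were summed over each region and compared with Fisher's exact test (scipy 1.17.1, Python 3.11.15, numpy 2.4.6, pandas 2.3.3, matplotlib 3.10.9). Intervals of levels are Wilson's and those of differences Newcombe's, at 95%. PCR reads without molecular identifiers are not independent molecules, so intervals cover counting error only. Left out were 519 regions with under 3 CpGs or under 10 reads in a pool. Genes came from GENCODE M39. On simulated counts for the P60 pools over 65119 regions, a change of 10 points passed the adjusted p in 64 of 100 regions and was called in 32, a change of 20 points passed in 96 of 100, and 8 of 64919 unchanged regions passed. The simulated counts were binomial within fixed borders. They hold no spread between libraries, no PCR copies and no delimiting of HMRs on the same reads, so these rates do not carry over to the data. Library measures were compared by exact permutation over 70 regroupings.

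Replicate numbers of the labels pair the libraries by sex. The correlation, across 65638 regions, of HMR presence centred on the subtype was 0.147, 0.197, 0.296 and 0.135 for libraries of numbers 1 to 4, above 0.1 in each. For libraries of one sex but unlike number it was 0.222 (eYFP- 2 with eYFP+ 4), 0.191 (eYFP- 3 with eYFP+ 1), 0.103 (eYFP- 4 with eYFP+ 2) and 0.007 (eYFP- 1 with eYFP+ 3). Pairing by number was thus not clearly told apart from shared sex. The main library tests were unpaired, and the numbers served as pairs only in the alternative with a replicate block. Replicates 1 and 2 and replicates 3 and 4 have different deposited name prefixes, both spread evenly over the subtypes. Members, gene lists and the rules for named genes were chosen with earlier results of these data known. Named are the 10 regions of largest difference per direction among those with at least 5 CpGs, 20 reads per CpG and an HMR in at least 3 more libraries of the lower subtype, up to 4 genes per list by largest called difference, the 5 loci with most calls, the reporter alleles, and genes the study names as differing in expression. One of the first and 1 called region of a gene list are not reported here.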

Additional observations from a re-analysis of the deposited data

How the results depend on the processing

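The number of calls depended most on the limit of size and on how regions were delimited. Lower in eYFP+ and lower in eYFP- cells, calls numbered 194 and 238 as reported, 75 and 87 at a limit of 15 points, 631 and 647 with the adjusted p alone, 91 and 121 in regions of at least 200 bp, and 14 and 19 in the parts shared by HMRs of both pools, where fewer and shorter stretches are tested. With HMRs of both ages merged, 317 were lower in eYFP+ and 289 in eYFP- cells, so the larger count changed sides. With 20 reads per CpG required, an alternative chosen after seeing the data, 154 and 193 were called. The regions that separated all libraries numbered 17 and 19 as reported, 26 to 62 and 31 to 93 with each library left out in turn, 285 and 869 with replicates 1 and 2 alone, 648 and 367 with replicates 3 and 4 alone, and 226 and 303 with a difference of at least 3 libraries. With 50% of the region covered, 29 were lower in eYFP- cells. A rule over fewer libraries is easier to meet; why the 2 sets of replicates gave unlike numbers was not tested, nor was the cause of the 317. The called share of promoters was 0.286% when gene starts of every biotype were used, against 0.0556%.

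For the library measures, the replicate block left the differences between subtypes at -725 HMRs, -0.0989 Mb, 17.5 bp, 0.546, -0.232 and -0.359 percentage points (promoter, intron, intergenic), with exact sign-flip p between 0.5 and 0.75 where the smallest possible is 0.125, and changed no call. Within replicates 3 and 4 each difference had the opposite sign, at 1632 HMRs, 0.708 Mb, -17.5 bp, -0.814, 0.561 and 0.271 points. With each library left out in turn they ran from -2856 to 1032 HMRs, -0.593 to 0.241 Mb, -19.1 to 57.9 bp, -0.579 to 1.93, -1.02 to 0.383 and -1.03 to 0.241 points, so that no direction is given for them. For the named regions, 58 alternative values of 29 regions lay within the interval of the reported value and none changed sign. Depth limits the regions under 20 reads per CpG, and single libraries have no depth here.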
